A study of Homo sapiens with 18 samples.

Results

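The change between 12 and 24 h of exposure to CsA was followed in HK-2 cells, which derive from human proximal tubular epithelium and were immortalized with papillomavirus genes. It rests on 6 of the 18 arrays of the series: the 3 arrays titled CsA at 24 h set against the 3 titled CsA at 12 h, matched by replicate number. The 3 control arrays at each of the same times, from cultures given only the vehicle, served as the background that passes with time in culture. The series, which also holds arrays at 48 h, belonged to a search for expression signatures of kidney toxicity. The labels do not spell out CsA, the usual short form of cyclosporin A, and give neither its dose nor the vehicle. All groups had been plated 24 h before treatment and were near 90% confluent when treatment began. They shared a DMEM and Ham's F12 medium with EGF (10 ng/ml), hydrocortisone (36 ng/ml), insulin (5 µg/ml) and glucose (5 mM). The sources used here do not say whether the medium was renewed between 12 and 24 h.

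Values are the deposited GCRMA values, taken to be on the log2 scale, where a difference of 1 is a doubling. The 10717 genes tested were those whose highest group mean reached 4 on that scale. The epithelial markers KRT8, KRT18, KRT19 and EPCAM, and N-cadherin (CDH2), which is not specific to epithelium, read 8.78 or more on each of these arrays. Together with CDH1 they made up the epithelial list. CDH1, the epithelial cadherin, had group means of 6.08 to 6.83 but ranged from 3.05 to 8.23 over single arrays, and read 3.46 in replicate 3 with CsA at 12 h. Of 25 proximal tubule and brush border markers on the array, 8 reached 4, among them DPP4, PAX8, CDH6 and SLC4A4, and the endocytic receptors LRP2 and CUBN and the phosphate carrier SLC34A1 did not. None of 8 leukocyte markers and 1 of 10 endothelial markers reached 4, whereas 5 of 10 fibroblast markers did, DCN and LUM included. So did 3 of 6 podocyte markers, PTPRO among them, and 2 of 9 distal nephron markers, FXYD2 and SCNN1A. The mean over the fibroblast list was 5.12 to 5.50 at 12 h and 5.14 to 5.40 at 24 h with CsA, so the times overlapped, as they did for the epithelial list (9.62 to 11.02 and 9.72 to 11.07). The gap between the 3-prime and 5-prime probe sets of ACTB, which widens as RNA degrades, was 0.73 to 0.96 at 12 h and 0.76 to 0.88 at 24 h with CsA.

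Replicate 3 stood apart from the other two. The SD over genes of the difference between 2 arrays of a group was 0.225 to 0.306 for replicates 1 and 2 and 0.695 to 0.796 where replicate 3 was one of them. For 12 of 12 arrays the best correlated array of another group carried the same replicate number, and the change was therefore tested with the replicate number as a block. The labels call the replicates biological. The block takes out the level shared by arrays of a number, so p-values measure the spread that remains. That spread was pooled over the CsA and vehicle arrays, so a gene has the same standard error for both changes. Where the CsA pairs differ more than the vehicle pairs, this error can be too small for the CsA change. The arrays measured bulk RNA, in which fewer cells of a type and less RNA per cell cannot be told apart.

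The gene groups below belong to stress programmes with known wiring. When cells slow protein synthesis under stress, the transcription factor ATF4 is made and raises genes for amino acid uptake and synthesis, and with DDIT3 genes of growth arrest and cell death; its partners bind the C/EBP-ATF element. Cytosolic chaperones are driven by the heat shock factor HSF1 through heat shock elements, and chaperones of the endoplasmic reticulum (ER) by the unfolded protein response through the ER stress response element. Cyclosporin A binds cyclophilins, which are protein-folding isomerases, and the complex inhibits the phosphatase calcineurin. Its effects on proximal tubule cells are of interest because kidney toxicity limits its clinical use.

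Promoter sequences are given here for some genes, picked because they hold elements named above, or, for TXNIP, the element of glucose-responsive genes. They are from RefSeq (GRCh38.p14), written 5′ to 3′ on the strand of the gene, with the motif in capitals and 35 bases on either side where the 250 bases before the start allowed. CHAC1, ASNS and CEBPG belong to the ATF4 list and did not pass the test, and HERPUD1 is an ER protein that rose. All 4 hold TGATGNAA, the C/EBP-ATF element, or its reverse complement:
CHAC1, chr15:40953227-40953304, plus strand: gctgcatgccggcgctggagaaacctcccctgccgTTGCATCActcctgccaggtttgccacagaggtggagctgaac
ASNS, chr7:97872434-97872511, minus strand: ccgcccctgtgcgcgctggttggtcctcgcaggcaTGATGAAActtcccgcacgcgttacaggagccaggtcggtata
CEBPG, chr19:33374036-33374112, plus strand: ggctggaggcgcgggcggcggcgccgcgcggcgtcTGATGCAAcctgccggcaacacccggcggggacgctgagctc
HERPUD1, chr16:56931931-56932008, plus strand: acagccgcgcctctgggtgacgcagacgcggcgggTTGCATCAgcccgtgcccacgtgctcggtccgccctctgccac

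The heat shock element, searched as GAA, TTC and GAA with 2 free bases between each, lay before 2 cytosolic chaperone genes that fell. In CHORDC1 the capitals cover 3 overlapping matches, and in HSP90AA1 they cover 1:
CHORDC1, chr11:90223052-90223144, minus strand: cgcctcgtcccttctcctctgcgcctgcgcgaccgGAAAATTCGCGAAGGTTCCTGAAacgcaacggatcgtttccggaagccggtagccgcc
HSP90AA1, chr14:102087085-102087167, minus strand: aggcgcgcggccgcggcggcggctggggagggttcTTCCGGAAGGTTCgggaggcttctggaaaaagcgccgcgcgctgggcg

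The carbohydrate response element, searched as CACGNG and a second CACGNG after 5 free bases, lay before TXNIP, the gene with the largest fall. The ER stress response element, searched as CCAAT and CCACG with 9 free bases between, lay before HSPA5, the main ER chaperone, which did not pass the test:
TXNIP, chr1:145996616-145996702, minus strand: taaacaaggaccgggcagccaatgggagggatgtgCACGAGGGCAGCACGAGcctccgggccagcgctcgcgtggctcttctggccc
HSPA5, chr9:125241356-125241444, minus strand: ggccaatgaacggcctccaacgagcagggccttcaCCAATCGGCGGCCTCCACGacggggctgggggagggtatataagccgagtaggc

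Both strands were searched, in windows of 250 bases for 27305 genes, of which 8884 were among those tested. The C/EBP-ATF element was found before 3.89% of all genes and 2.31% of those tested. It lay before 12 of 279 genes that rose (4.30%), 4 of 230 that fell (1.74%) and 5 of 24 ATF4 targets with a window (20.8%). Those 5 were CHAC1, ASNS, CEBPG, SLC1A5 and ATF3, all with a positive CsA difference and none past the test. The search took 1 string in 250 bases, so it cannot tell whether members past the test hold the element elsewhere. The heat shock element was found before 0.557% of all genes and 0.416% of those tested. It lay before 4 of 230 genes that fell (1.74%), 1 of 279 that rose (0.358%) and 5 of 15 heat shock genes (33.3%). Of those 5, CHORDC1 and HSP90AA1 fell, and HSP90AB1 (-0.18), HSPD1 (-0.14) and DNAJB6 (-0.34) did not pass the test. The ER stress response element was found before 0.0916% of all genes and 0.169% of those tested. It lay before 7 of 19 ER chaperone genes (36.8%), 0 of 279 genes that rose and 1 of 230 that fell (0.435%). The carbohydrate response element was found before 0.0586% of all genes and 0.135% of those tested, TXNIP among them. A match describes the letters in the window and is neither a shown site nor a cause.

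Between 12 and 24 h with CsA, 345 of 10717 genes rose (3.22%) and 282 fell (2.63%), 627 in all (5.85%), in limma with the replicate block and Benjamini-Hochberg adjustment at 0.05. The largest rises were in INHBE, a stress-induced subunit of the activin family of secreted ligands, and SLC7A11, the cystine and glutamate exchanger. The largest falls were in TXNIP, which binds thioredoxin and restrains glucose uptake, and ZBED2, a zinc finger protein. Most changes were small: 20 of the genes that rose and 10 of those that fell did so by 2-fold or more. Over the same hours with vehicle, 2 genes passed (0.0187%), both lower at 24 h: MMP1, a collagenase, by -1.15 and SHISA9, a receptor-associated membrane protein, by -0.80 (limma with Benjamini-Hochberg adjustment, adjusted p = 0.0333 for each). For SHISA9 another probe set moved the other way with CsA, by 0.15 against -1.22. Not past adjustment, 2719 genes with CsA and 1400 with vehicle had an unadjusted p under 0.05.

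The number of calls rested on the block and on all 12 arrays. Without the block 0 genes passed with CsA (687 at an unadjusted p under 0.05), and 0 did when the 6 CsA arrays were fitted alone (1953 unadjusted). With the 48 h arrays in the fit 14 did, among them INHBE, SLC7A11, STC2, GDF15 and TXNIP. Leaving out replicate 1, 2 or 3 from all groups left 3, 1 and 253 genes. Leaving out single arrays left 137, 95 and 123 genes for CsA replicates 1, 2 and 3 at 12 h, and 398 and 140 for CsA replicates 1 and 2 at 24 h. It left 344 genes without vehicle replicate 1 at 12 h, and 387 without vehicle replicate 1 or vehicle replicate 2 at 24 h. Each rise or fall named below is a call of the blocked fit to 12 arrays, and its direction was the same in all 3 replicate pairs. The naming rules picked 59 of these calls, lists not described aside. Of the 59, 3, 0 and 29 also passed without replicate number 1, 2 or 3, the last being the one that stood apart. Without the block 0 did. ZBED2, outside the 59, was the 1 gene that passed without replicate number 2 (limma adjusted p = 0.0194).

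The calls were set beside what vehicle cultures did. Of the 627 genes, 566 had the same sign in vehicle (90.3%), against 6994 of all 10717 genes (65.3%), and in 608 the vehicle change was the smaller one, against 6437 of all genes. The 345 that rose had a median of 0.51 with CsA and 0.20 with vehicle, and the 282 that fell had medians of -0.47 and -0.20. Both contrasts came from the same replicate numbers, and the genes were picked for their CsA change, so their larger CsA medians are a description. Tested directly, the CsA change minus the vehicle change passed for 0 of 10717 genes (0%; limma, smallest adjusted p after Benjamini-Hochberg adjustment 0.476), with 923 at an unadjusted p under 0.05. No gene is therefore shown to have changed differently with CsA than with vehicle over these hours. The SD over genes of the change was 0.256 with CsA and 0.185 with vehicle. Within CsA it was 0.268, 0.385 and 0.349 in pairs 1, 2 and 3, and within vehicle 0.257 to 0.268, so the wider CsA spread came with pairs 2 and 3. The arrays of 24 h lay wholly above or below those of 12 h for 1097 genes with CsA (10.2%) and for 649 with vehicle (6.06%).

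**Figure D1:**
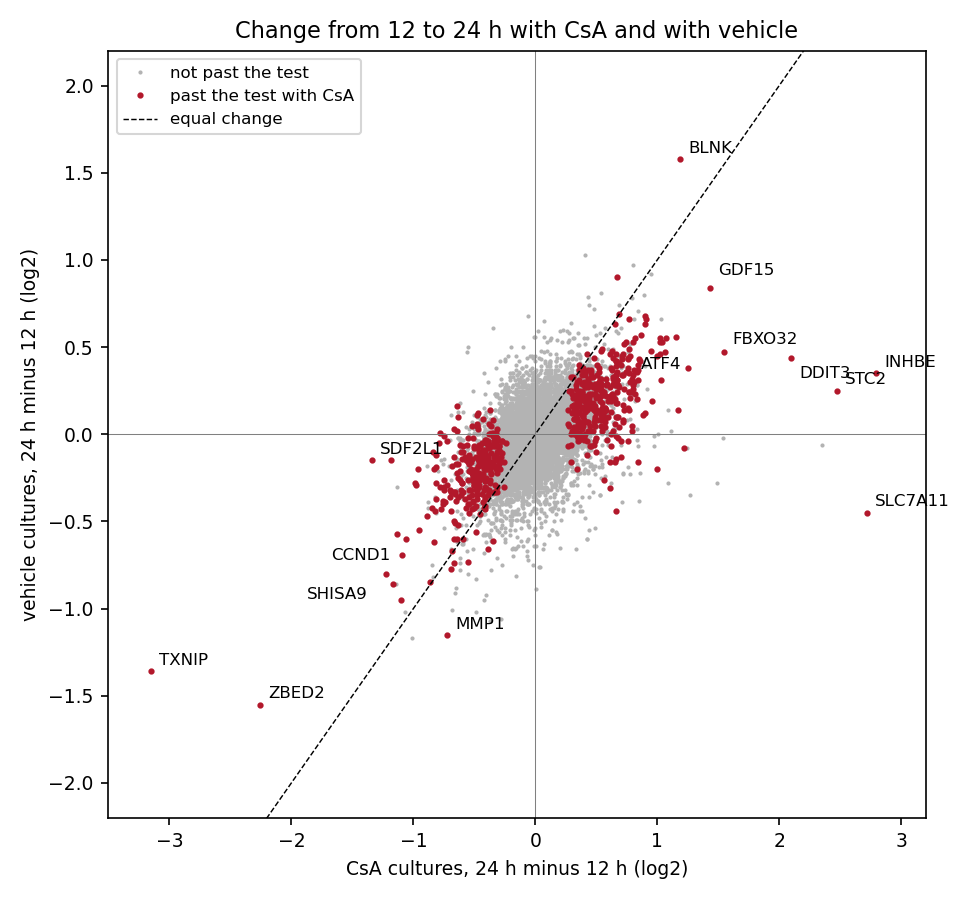
Each point is 1 of 10717 genes, with its log2 change from 12 to 24 h in CsA cultures on the x axis and in vehicle cultures on the y axis; red points passed the test with CsA and the dashed line marks equal change. TXNIP (-3.15 with CsA and -1.36 with vehicle) and ZBED2 (-2.26 and -1.55) lie far to the lower left, and SLC7A11 (2.72 and -0.45) and INHBE (2.79 and 0.35) far to the right.

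ATF4 targets were the list with the highest median. Of 29 tested members 8 rose and none fell (27.6%, against 3.22% of all genes), 28 had a positive difference, and the median was 0.77, beside 0.08 for the same members with vehicle and -0.01 over all genes. The medians of pairs 1, 2 and 3 were 0.19, 1.42 and 0.47 with CsA and 0.06, 0.17 and 0.02 with vehicle, so replicate 2 carried the largest shift. The count of 8 became 0 without the block or with the 6 CsA arrays alone, 3 with all 18 arrays, 4 without the level filter and 15 with a trended and robust eBayes. It became 3, 0 and 3 without CsA replicate 1, 2 or 3 at 12 h, 13 without CsA replicate 3 at 24 h, and 0, 0 and 4 without replicate number 1, 2 or 3.

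SLC7A11, which brings in cystine for glutathione, had the largest change of the list. It read 5.69, 5.91 and 5.10 in replicates 1, 2 and 3 at 12 h with CsA and 7.64, 10.08 and 7.13 at 24 h. With vehicle it read 4.86, 5.36 and 4.98 at 12 h and 4.34, 5.45 and 4.05 at 24 h. Every CsA array of 24 h lay above every CsA array of 12 h, replicate 2 by the most, and the vehicle times overlapped. The change with CsA was 2.72 ± 0.42 (standard error of the fit; 6.57-fold; limma with Benjamini-Hochberg adjustment, adjusted p = 0.0123). SLC7A1, a carrier of cationic amino acids, rose by 0.83 ± 0.18. SLC3A2, the heavy chain that SLC7A11 and SLC7A5 need at the membrane, differed by 1.09 ± 0.29 and did not pass (limma adjusted p = 0.0618).

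Among the regulators, ATF4 itself rose from 12.02, 12.13 and 11.87 to 12.64, 13.27 and 12.50 with CsA. In vehicle it read 11.52, 11.69 and 11.73 at 12 h and 12.04, 12.12 and 11.79 at 24 h. The CsA times did not overlap, and the change of 0.80 ± 0.14 (limma adjusted p = 0.0173 after Benjamini-Hochberg adjustment) stood beside 0.34 with vehicle. DDIT3, the pro-apoptotic factor also called CHOP, went from 7.64, 7.94 and 7.4 to 9.03, 11.48 and 8.78 with CsA. Replicate 2 stood 3.54 higher at 24 h and the other two 1.39 and 1.38 higher. The DDIT3 rise was 2.10 ± 0.41 (4.30-fold; limma adjusted p = 0.0242), beside 0.44 with vehicle. CEBPB, a partner factor of ATF4, rose by 0.77 ± 0.16 and TRIB3, a pseudokinase that feeds back on ATF4, by 1.07 ± 0.18, beside 0.35 and 0.55 with vehicle. ATF3, a stress-induced repressor, read 4.0, 4.14 and 6.92 at 12 h and 6.14, 8.27 and 7.69 at 24 h, so that replicate 3 was already high at 12 h, and its difference of 2.35 ± 0.67 did not pass (limma adjusted p = 0.0702).

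Genes for secreted proteins stood among the largest rises. INHBE, which was not on the list, read 6.82, 7.07 and 4.98 at 12 h with CsA and 8.63, 10.87 and 7.73 at 24 h. In vehicle it stayed between 5.38 and 7.13 on all 6 arrays. The CsA times did not overlap, and the rise was 2.79 ± 0.37 (6.90-fold; limma with Benjamini-Hochberg adjustment, adjusted p = 0.00837). STC2, a secreted glycoprotein of calcium and phosphate balance, rose from 3.87, 4.22 and 4.09 to 5.76, 7.21 and 6.63, by 2.47 ± 0.42. Its 12 h values lay near the level filter of 4, where GCRMA compresses differences. GDF15, a stress cytokine, rose by 1.43 ± 0.20 with CsA, beside 0.84 with vehicle.

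The enzymes of the list moved less evenly. CHAC1, which degrades glutathione, read 3.62, 3.63 and 3.62 at 12 h, close to the low value that GCRMA gives to probe sets near background, and 3.81, 6.47 and 5.22 at 24 h; its difference of 1.54 ± 0.44 did not pass (limma adjusted p = 0.0701). CTH, which makes cysteine, differed by 1.24 ± 0.38, with 10.32 in replicate 2 at 24 h and 7.95 and 8.23 in the other two. ASNS, asparagine synthetase, read 10.61, 10.39 and 8.45 at 12 h and 10.32, 11.54 and 9.18 at 24 h. Replicate 1 was lower at 24 h and the other two higher, and the difference of 0.53 ± 0.33 did not pass (limma adjusted p = 0.355). The cytosolic aminoacyl-tRNA synthetases, which charge tRNAs and in part depend on ATF4, had 0 of 17 members past the test and a median of 0.13, beside -0.09 with vehicle. CARS1 differed by 0.57 and AARS1 by 0.54.

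**Figure D2:**
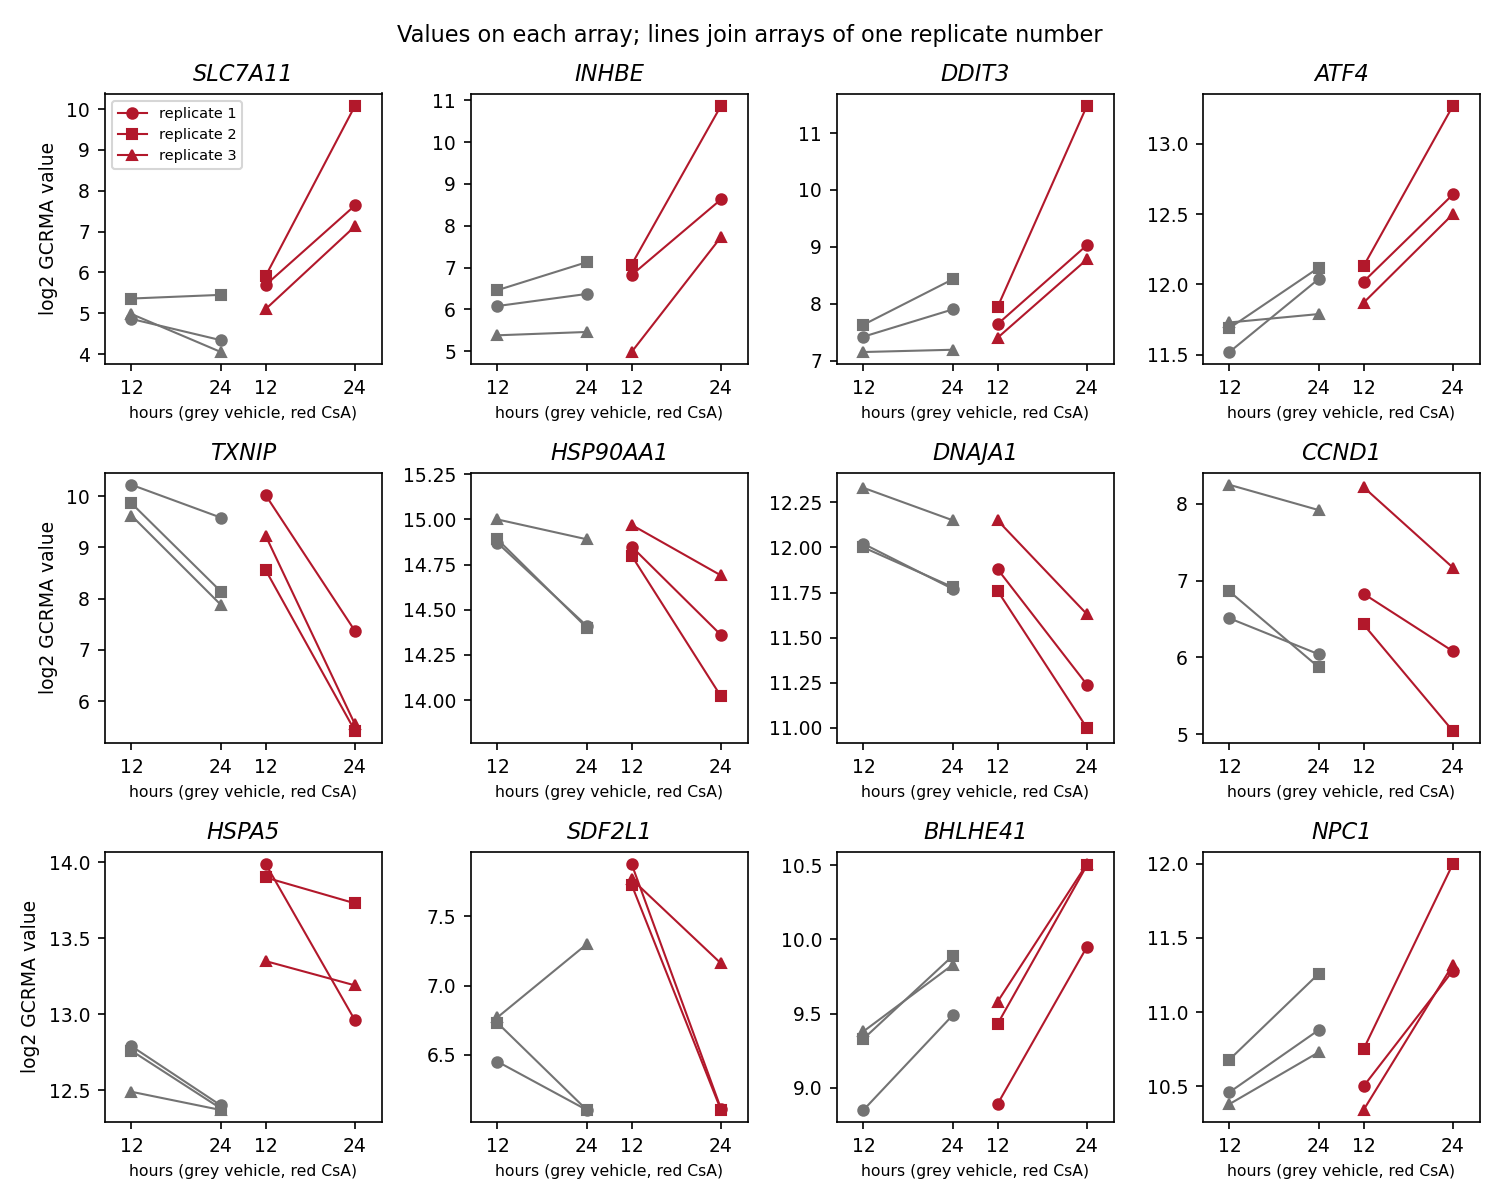
Log2 GCRMA values of 12 genes on each array at 12 and 24 h, grey for vehicle and red for CsA, with a line joining the arrays of one replicate number. SLC7A11, INHBE, DDIT3 and ATF4 climb in every CsA pair, steepest in replicate 2 (squares), and TXNIP descends in all 6 pairs, to 5.42 to 7.37 with CsA and 7.88 to 9.58 with vehicle.

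Chaperones of the ER did not share that direction. Of 20 tested ER chaperones and disulfide isomerases none rose and 1 fell (5.00% called, near the 5.85% of all genes), 7 had a positive difference, and the median was -0.03 with CsA and -0.05 with vehicle. HSPA5, also called BiP, read 13.99, 13.90 and 13.35 at 12 h with CsA and 12.96, 13.73 and 13.19 at 24 h. With vehicle it read 12.79, 12.76 and 12.49 at 12 h and 12.40, 12.38 and 12.37 at 24 h. Every pair was lower at 24 h, the CsA times overlapped, and the CsA arrays lay above the vehicle arrays at both times. The CsA difference over time was -0.45 ± 0.17, beside -0.30 with vehicle, and did not pass (limma adjusted p = 0.147). DNAJC3, a cochaperone of HSPA5, differed by -0.48 and -0.52, and HSP90B1, the ER member of the HSP90 family, by 0.25 and 0.07, with CsA and vehicle.

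SDF2L1, an ER-resident partner of DNAJ cochaperones, was the member that fell. It read 7.88, 7.73 and 7.77 at 12 h with CsA and 6.11, 6.10 and 7.16 at 24 h. In vehicle it read 6.45, 6.73 and 6.77 at 12 h and 6.10, 6.10 and 7.30 at 24 h. Of the 6 arrays of 24 h, 4 share a value of 6.10 or 6.11, and those of replicate 3 lie above it. The change with CsA was -1.34 ± 0.25 (limma adjusted p = 0.0218 after Benjamini-Hochberg adjustment), a size that is not exact where arrays share a low value. Among 14 ER-associated degradation genes HERPUD1, a membrane component of the retrotranslocation complex, rose by 0.73 ± 0.16 and DERL2, a channel subunit, changed by -0.44 ± 0.07. Of 14 translocon genes 2 fell, SRPRB, a subunit of the signal recognition particle receptor, by -0.44 ± 0.07 and SSR1 by -0.36 ± 0.08. Of 20 coat and cargo receptor genes 1 fell, SEC24D, a cargo-binding COPII subunit, by -0.47 ± 0.11. The probe sets of SEC24D changed by -0.47 to 0. In the 3 lists of ER-associated degradation, translocon and coat genes 14.3%, 14.3% and 5% were called, against 5.85% of all genes. Their medians were -0.07, -0.10 and -0.09.

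Cytosolic and mitochondrial heat shock proteins were lower as a group. Of 17 tested members 9 fell and none rose (52.9%, against 2.63% of all genes), and 16 had a negative difference. The median was -0.40 with CsA and -0.14 with vehicle, and the pair medians were -0.32, -0.38 and -0.28 with CsA and -0.19, -0.15 and -0.09 with vehicle, so all 6 pairs shared the sign. The count of 9 went to 0 without the block, with all 18 arrays, with the 6 CsA arrays alone, and without replicate number 1 or 2, and to 4 without number 3. Leaving out CsA replicate 1, 2 or 3 at 12 h left 2, 3 and 3 members, and leaving out CsA replicate 2 at 24 h left 2.

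CHORDC1, a cochaperone of HSP90 whose promoter holds the overlapping elements shown above, read 8.92, 8.81 and 9.79 at 12 h with CsA and 8.01, 8.17 and 8.84 at 24 h. With vehicle it went from 9.32, 9.02 and 9.95 to 8.42, 8.53 and 9.48. Each of the 6 pairs was lower at 24 h, and the groups overlapped because replicate 3 was high at both times. The CsA change was -0.83 ± 0.10 (limma adjusted p = 0.00596 after Benjamini-Hochberg adjustment), beside -0.62. DNAJA1, a DNAJ cochaperone of HSP70, fell from 11.88, 11.76 and 12.15 to 11.24, 11 and 11.63 with CsA, without overlap, by -0.64 ± 0.08, and differed by -0.22 with vehicle. HSP90AA1, the inducible cytosolic HSP90, changed by -0.52 ± 0.11 and BAG3, a nucleotide exchange factor of HSP70, by -0.51 ± 0.09, beside -0.35 and -0.27. HSPH1, HSPE1, DNAJB4, DNAJB1 and STIP1 changed by -0.47 to -0.40. HSF1 itself differed by -0.06, and the mitochondrial chaperones HSPD1 and HSPA9 by -0.14 and 0.03, none past the test.

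**Figure D3:**
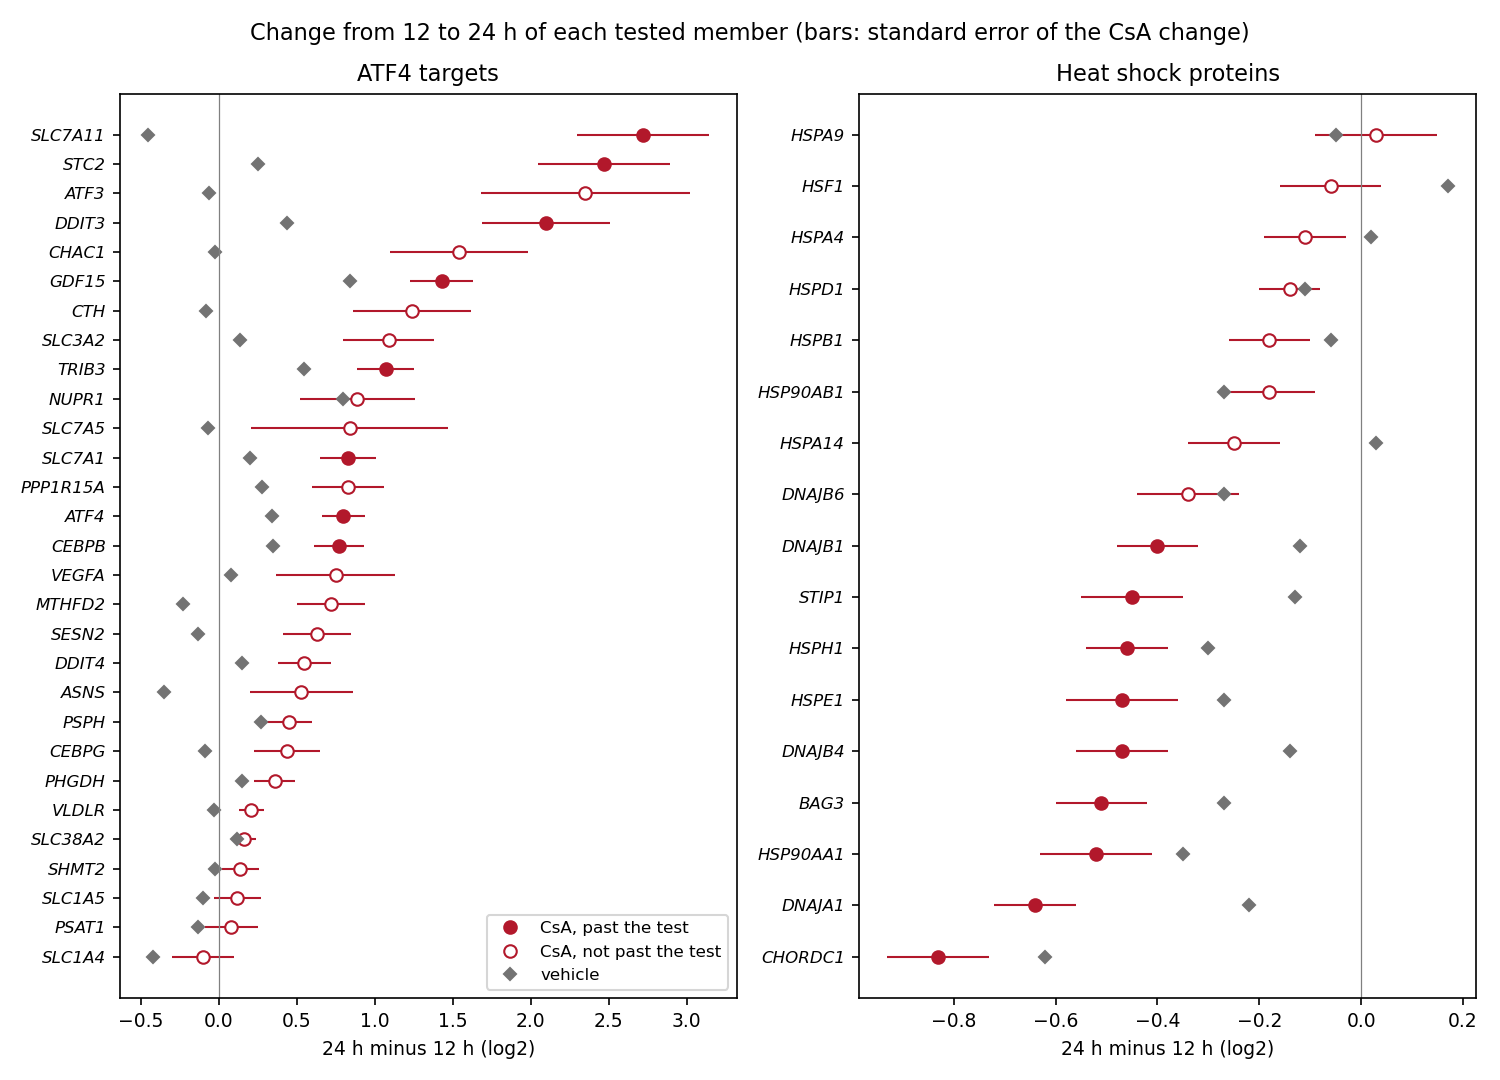
Log2 change from 12 to 24 h for the 29 tested ATF4 targets (left) and the 17 tested heat shock proteins (right); red circles show CsA with the standard error of the fit as bars, filled where the gene passed the test, and grey diamonds show vehicle. On the left 28 red circles lie above 0 and 8 are filled, and on the right 16 lie below 0 and 9 are filled.

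Other parts of protein handling moved little. Of 24 proteasome subunits 2 fell (8.33% called, against 5.85% of all genes). They were PSMC4, an ATPase of the regulatory particle, by -0.40 ± 0.08 and PSMA7, a core subunit, by -0.27 ± 0.06. The difference was negative in all 24, at a median of -0.16 beside -0.10 with vehicle. Of 29 autophagy and lysosome genes 1 rose (3.45% called), NPC1, which exports cholesterol from lysosomes. It read 10.50, 10.75 and 10.34 at 12 h with CsA and 11.28, 12.00 and 11.32 at 24 h, and with vehicle 10.46, 10.68 and 10.38 and then 10.88, 11.26 and 10.73. Both treatments were higher at 24 h in every pair and without overlap, by 1.00 ± 0.10 with CsA (limma adjusted p = 0.00427) and 0.45 ± 0.10 with vehicle (limma adjusted p = 0.151). The list had 22 positive differences and a median of 0.13, beside 0.02. Of the 19 cholesterol synthesis genes 0 passed, and HMGCS1, an early enzyme of that pathway, differed by 0.11.

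TXNIP showed the largest change of any gene. It read 10.02, 8.56 and 9.23 at 12 h with CsA and 7.37, 5.42 and 5.55 at 24 h. With vehicle it went from 10.22, 9.86 and 9.62 to 9.58, 8.14 and 7.88. The CsA times did not overlap, and each of the 6 pairs was lower at 24 h. The change was -3.15 ± 0.28 with CsA (8.90-fold lower; limma with Benjamini-Hochberg adjustment, adjusted p = 0.00302) and -1.36 ± 0.28 with vehicle (limma adjusted p = 0.144). It passed with all 18 arrays (adjusted p = 0.0382) and without replicate number 1 (limma adjusted p = 0.0374), but not without the block, with the 6 CsA arrays alone or without replicate number 2.

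Glucose handling genes beside it were mixed. SLC2A3, the high-affinity glucose transporter GLUT3, rose from 8.38, 8.22 and 6.78 to 9.00, 9.57 and 8.25 with CsA, by 1.15 ± 0.15, beside 0.56 with vehicle. Replicate 3 was the lowest at both times, so the groups overlapped. Of 20 glycolysis genes 3 rose (15% called, against 5.85% of all genes). They were SLC2A3, the enolase ENO2 (0.55 ± 0.12) and the phosphofructokinase PFKM (0.35 ± 0.07). The glycolysis median was -0.02, beside 0.09. Of 17 other hypoxia-inducible targets 3 passed (17.6%). NDRG1 and KDM3A rose, by 0.73 ± 0.16 and 0.46 ± 0.09, and the oxygen sensor EGLN1 changed by -0.39 ± 0.08. Among 24 respiratory chain genes 0 passed, with a median of -0.04 beside 0.05.

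A list drawn up for genes induced by withdrawal of nutrients or growth factors held both the largest fall and some of the larger rises. It counts TXNIP, whose promoter holds the element of glucose-responsive genes shown above, so TXNIP need not rise when glucose is withdrawn. Of 18 tested members 3 rose and TXNIP fell (22.2% called, against 5.85% of all genes), with a median of 0.16 beside 0.08. FBXO32, a ubiquitin ligase of muscle wasting, read 7.14, 6.95 and 7.92 at 12 h with CsA and 8.23, 8.99 and 9.44 at 24 h, while vehicle arrays ranged from 6.87 to 8.17 over both times. The CsA times did not overlap, and the rise was 1.55 ± 0.17 (2.94-fold; limma adjusted p = 0.00531 after Benjamini-Hochberg adjustment), beside 0.47. Another probe set of FBXO32 changed by only 0.31 with CsA. KLHL24, an adaptor of a ubiquitin ligase, rose by 0.78 ± 0.15 and IRS2, an adaptor of insulin signalling, by 0.35 ± 0.07. The probe sets of KLHL24 changed by 0.10 to 0.94. Of 15 clock genes the related repressors BHLHE41 and BHLHE40 rose (13.3% called, against 5.85% of all genes). BHLHE41 went from 8.89, 9.43 and 9.58 to 9.95, 10.50 and 10.51 with CsA and from 8.85, 9.33 and 9.38 to 9.49, 9.89 and 9.83 with vehicle, in all 6 pairs upward. Its CsA change was 1.02 ± 0.08 (limma adjusted p = 0.000987), beside 0.55, and that of BHLHE40 was 0.65 ± 0.10, beside 0.06. DBP and NR1D2, outputs of the clock, differed by 0.95 and 0.90 and did not pass, and the clock median of 0.47 fell into pair medians of 0.19, 0.77 and 0.08.

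Among regulators of the G1 phase a cyclin fell and an inhibitor rose. CCND1, the G1 cyclin that answers growth factors, read 6.83, 6.43 and 8.22 at 12 h with CsA and 6.08, 5.04 and 7.17 at 24 h. In vehicle it went from 6.51, 6.86 and 8.25 to 6.04, 5.87 and 7.92. All 6 pairs were lower at 24 h, and replicate 3 was the highest in each group, so the groups overlapped. The change with CsA was -1.06 ± 0.21 (2.08-fold lower; limma adjusted p = 0.0276 after Benjamini-Hochberg adjustment), beside -0.60. CDK6 and CCND3, a kinase and cyclin of the same step, changed by -0.43 ± 0.11 and -0.38 ± 0.08, and the inhibitor CDKN1A rose by 0.67 ± 0.13, beside 0.36 with vehicle. These were the 4 of 14 members past the test (28.6%, against 5.85% of all genes). Among 19 p53 targets 4 passed (21.1%): CDKN1A, GDF15 and GADD45A rose, GADD45A by 1.17 ± 0.19, and TIGAR, which lowers glycolytic flux, changed by -0.46 ± 0.07; the median was 0.10, beside 0.09.

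DNA replication genes had a lower median that the pairs did not share. Of 35 tested members 1 fell (2.86% called, against 5.85% of all genes). It was CDC6, which loads the replicative helicase. CDC6 went from 9.10, 8.90 and 9.49 to 8.28, 7.80 and 9.15, by -0.75 ± 0.19. In all, the difference was negative in 32, and the median was -0.23, beside -0.05 with vehicle. The pair medians were -0.22, -0.64 and 0.14 with CsA and -0.08, -0.27 and 0.16 with vehicle, so pair 3 went the other way in both treatments. Of 32 mitosis genes 1 rose (3.12% called), the kinetochore protein CENPF, by 0.37 ± 0.07, and the median was -0.08.

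**Figure D4:**
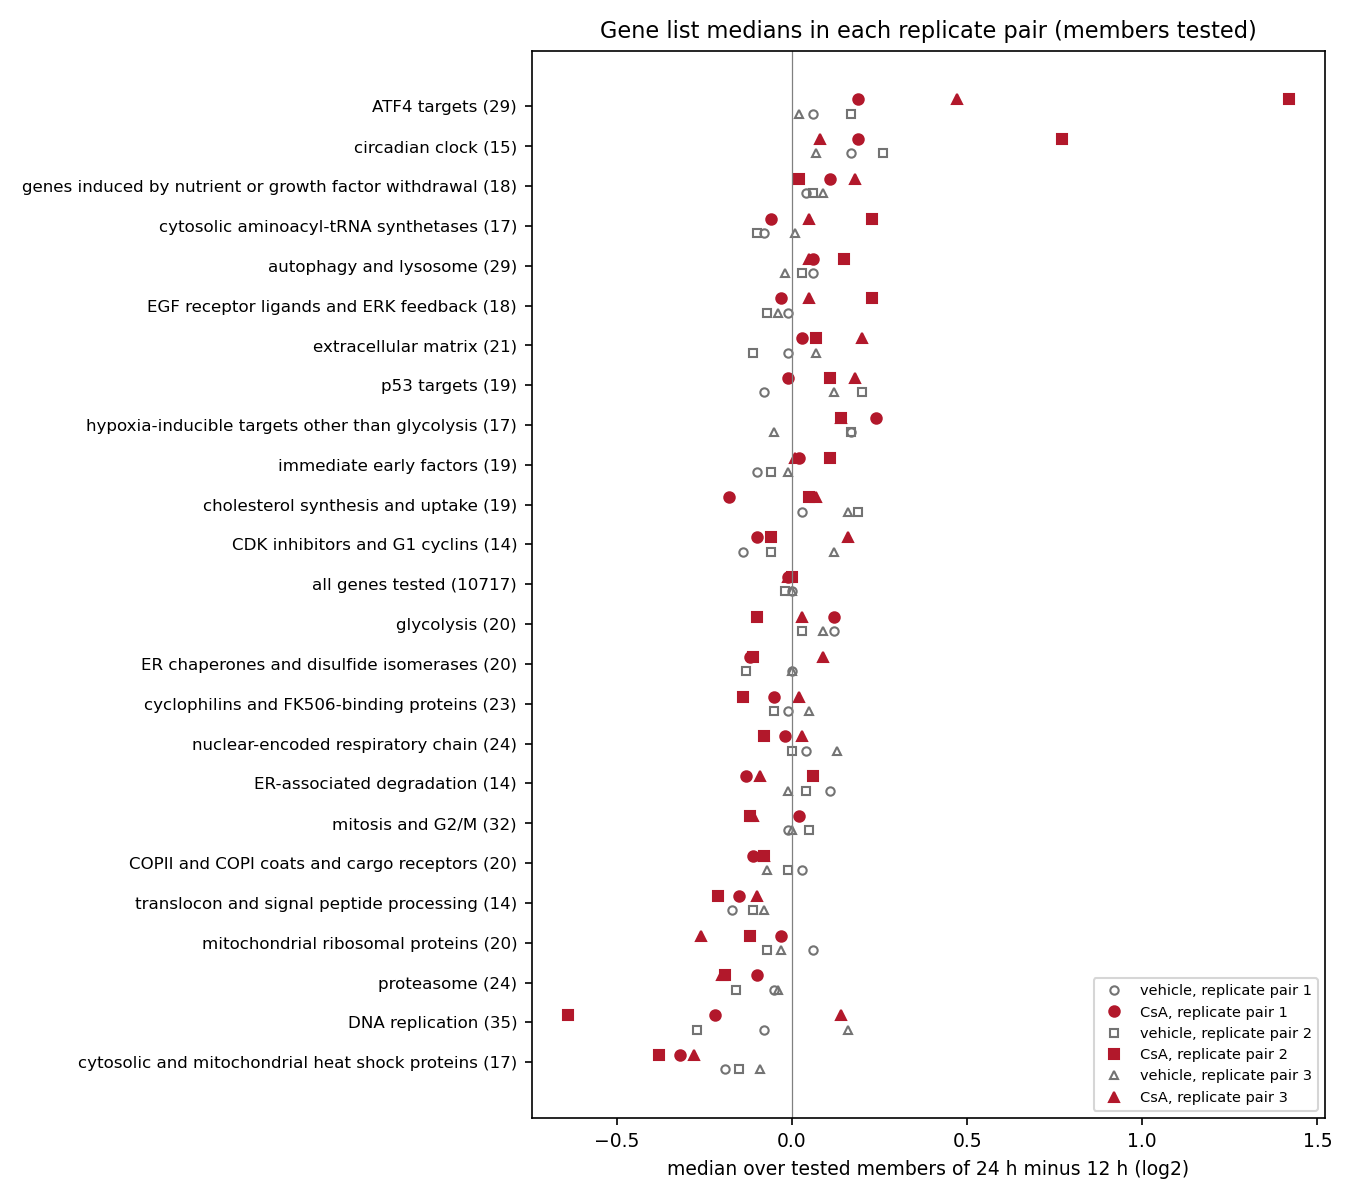
Median log2 change from 12 to 24 h over the tested members of 24 gene lists and over all genes, in each replicate pair: red symbols for CsA, open grey symbols for vehicle, with circles, squares and triangles for pairs 1, 2 and 3. ATF4 targets reach 1.42 in CsA pair 2 and 0.19 in pair 1, heat shock proteins lie between -0.38 and -0.28 in the CsA pairs, and DNA replication genes spread from -0.64 to 0.14.

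Among the remaining large changes, several genes are known from epithelial growth and signalling. KITLG, the ligand of the KIT receptor, read 9.52, 9.37 and 8.71 at 12 h with CsA and 8.55, 8.42 and 7.76 at 24 h. In vehicle it went from 9.5, 9.51 and 8.69 to 8.89, 8.87 and 8.29. The CsA pairs fell almost equally and without overlap, by -0.95 ± 0.07 (limma adjusted p = 0.000987), beside -0.55. SOX9, a transcription factor of tubular repair, changed by -1.17 ± 0.26 and ENC1, an actin-binding adaptor, by -1.13 ± 0.20, beside -0.86 and -0.57. At 24 h SOX9 read 4.64 and 4.63 in CsA replicates 1 and 2 and 4.59 in vehicle replicate 2. Where arrays share such a low value, the size of its change is not exact. SLFN12, C1orf116, TNFRSF19 and the antisense transcript MORC2-AS1 changed by -0.99 to -0.84. MORC2-AS1 is named as its probe set is annotated. PGPEP1, a peptidase, SLC22A15, a solute carrier, and CYRIA, a regulator of actin, rose by 1.25 ± 0.24, 1.22 ± 0.28 and 1.03 ± 0.15, beside 0.38, -0.08 and 0.31. With CsA the probe sets of PGPEP1 changed by 0.12 to 1.25 and those of CYRIA by 0.05 to 1.03.

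Lists of growth factor response and mitochondrial translation held few calls. Their shares are given beside 5.85% of all genes, and differences between them were not tested. Of 18 EGF receptor ligand and ERK feedback genes 1 rose (5.56%), the receptor EGFR, by 0.39 ± 0.09, with a median of 0.12 beside -0.07 in vehicle. Of 19 immediate early factors 3 passed (15.8%): KLF4 and JUND rose, by 0.70 ± 0.17 and 0.38 ± 0.09, and KLF10, induced by TGF-beta, changed by -0.41 ± 0.10. Of 20 mitochondrial ribosomal proteins 0 passed, at a median of -0.11 beside -0.03.

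In lists tied to kidney injury and to the drug's targets the called share was near that of all genes (5.85%) or somewhat above it. SOX9 was the only one of 18 tubular injury markers past the test (5.56%). HAVCR1, the injury marker KIM-1, differed by -0.02 ± 0.10, CLU by 0.09 ± 0.11 and LCN2 by -0.08 ± 0.21. LCN2 read 2.77 to 3.49 on the CsA arrays of replicates 1 and 2 and 10.54 and 10.87 on those of replicate 3, so the replicates differed far more than the times. Of 23 cyclophilins and FK506-binding proteins 2 fell (8.70%), the HSP90 cochaperone FKBP4 by -0.51 ± 0.08 and the spliceosomal PPIL1 by -0.46 ± 0.07. PPIA, the main cytosolic cyclophilin, differed by -0.01 ± 0.06 and PPIB, that of the ER, by 0.04 ± 0.08. Of 11 calcineurin and NFAT genes 1 rose (9.09%), NFAT5, which answers osmotic stress and does not need calcineurin, by 0.54 ± 0.09, and RCAN1, a calcineurin feedback inhibitor, differed by -0.26 ± 0.10. Of 21 matrix genes 2 passed (9.52%), LAMB1 and LAMC1, laminin chains of the basement membrane, which rose by 0.51 ± 0.11 and 0.35 ± 0.08. HMOX1, a target of oxidative stress, and CXCL8, a chemokine, differed by 0.33 and -0.16 and did not pass.

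The direct difference between the CsA and vehicle changes passed for no gene, and its smallest p-values belonged to genes of large and of modest change alike. PATL1, a decapping factor of mRNA decay, had the smallest p. It read 7.88, 8.10 and 7.76 at 12 h with CsA and 8.74, 8.95 and 8.67 at 24 h. In vehicle it read 8.48, 8.40 and 8.21 at 12 h and 8.38, 8.61 and 8.43 at 24 h. At 12 h the CsA arrays lay below the vehicle arrays, and at 24 h above them. The 2 changes differed by 0.76 ± 0.11 (limma, adjusted p = 0.476 after Benjamini-Hochberg adjustment), which did not pass. SLC7A11 and TXNIP differed by 3.17 ± 0.59 and -1.79 ± 0.40 between the treatments, also at an adjusted p of 0.476 in limma. GRAMD1C, GEM and ITCH had positive differences of 0.80, 0.77 and 0.55, and DDIAS, SIVA1, SLC33A1 and ISOC2 negative ones of -0.62, -0.59, -0.53 and -0.52, none past the test. FKBP4, CHORDC1, NPC1 and CCND1, named above, had vehicle changes of the same sign as with CsA and smaller size, of -0.39, -0.62, 0.45 and -0.60.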

How the data were processed

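RNA of HK-2 cultures was measured on 54675 probe sets of Affymetrix arrays. The authors made the deposited values, taken to be log2, with GCRMA (background correction, normalization and summary of each probe set), per the submitters' processing notes, which name no version. The log base was inferred from the range of the values and stands in no label. The sources used here do not say which arrays GCRMA handled together. Array medians were 2.858 to 2.924. The number of arrays limits the precision.

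Of the probe sets 41091 had 1 gene symbol, 1801 several, 11721 were unnamed here and 62 were controls. A gene was represented by its brightest probe set on average, if its highest group mean was at least 4, which left 10717 genes. Groups and replicate numbers came from the labels. The fit used lmFit and eBayes of limma 3.58.1 (R 4.3.3) on 12 arrays, CsA and control at 12 and 24 h, with a term per group and the replicate number as a block (residual df 6), and Benjamini-Hochberg adjustment at 0.05. The lowest correlation of same-number arrays' deviations from their group means was 0.65, and the highest of different numbers between the same groups (CsA at 24 h and control at 12 h) was 0.703. All same-number correlations being above 0.1, the numbers were taken to pair the arrays. Arrays of different numbers could pass 0.1 too, so that cut-off alone cannot show which numbers pair. The best match of an array in another group carried its own number for 12 of 12 arrays. The pairing comes from the data: the labels tie the numbers to no passage or day. Errors beside differences are standard errors of that fit. Scripts were tested on simulated data. Tables and plots were made in Python 3.11.15 with pandas 2.3.3 and matplotlib 3.10.9.

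Members and gene lists were chosen with earlier results of these data known. Named were the 12 largest rises and 12 largest falls past the threshold with 1 sign in 3 pairs and a higher group mean of at least 6, the 6 smallest p-values each way for the difference between treatments, up to 3 members per list in the direction of its median, and 18 preset genes. ZBED2, the vehicle calls and members named for being the few of a list past the test were chosen after their values were seen. Of 48 lists 43 had at least 5 tested members, and only those named in the report were described. Promoter windows were searched as strings.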

Additional observations from a re-analysis of the deposited data

Results flagged for a closer look

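Among the genes picked by the naming rules, with list members taken only from the lists described, 5 differed in direction between the treatments in every pair. F3, picked from a list not described, had the pattern as well, with a difference of 0.50. All 3 CsA pairs moved one way from 12 to 24 h and all 3 vehicle pairs the other. The pattern was not looked for among all genes tested, so its share over them is not given. ZNF777, ITCH and BCL2L12 had been named for a small p of this same difference. For ATF3 the CsA change minus the vehicle change was 2.40 (limma adjusted p = 0.563 after Benjamini-Hochberg adjustment). Its vehicle pairs moved by only -0.10, -0.06 and -0.01, and its CsA pairs by 2.14, 4.13 and 0.77. ZNF777, a zinc finger protein, differed by 1.00, with CsA pairs of 0.65, 0.38 and 0.31 and vehicle pairs of -0.73, -0.37 and -0.57. ITCH, a ubiquitin ligase, differed by 0.55, and BCL2L12, a member of the BCL2 family, by -0.51 (limma adjusted p = 0.476 for ZNF777, ITCH and BCL2L12). EDEM3, which trims mannose from misfolded ER glycoproteins, differed by -0.34. None of these 5 differences passed the direct test between the treatments.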

How the results depend on the processing

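The number of genes called from 12 to 24 h with CsA, 627, became 0 without the replicate block, 14 with all 18 arrays, 404 without the level filter, 970 with a trended and robust eBayes, and 0 with the 6 arrays of the treatment alone; with one array left out it was 95 to 572, and with one replicate number left out 1 to 253. A level filter of 6 left 773, renewed quantile normalization 644, values raised to 4 678 and the median over probe sets 576. The 2 vehicle calls became 0 without the block, with 18 arrays, with values raised to 4, with the median over probe sets and with the vehicle arrays alone, 12 with a filter of 6, 7 without a filter, 1 after quantile normalization and 7 with the trended fit; leaving out one array gave 0 to 5 and one number 0. The difference between treatments gave 0 calls under every alternative run. Of the 59 CsA results past the threshold that the naming rules picked, lists not described aside, none turned its sign. Of these, 59 were no longer past it without the block, 53 with 18 arrays and 59 with 6 arrays. The count was 56, 59 and 30 without replicate number 1, 2 or 3, 22 without a filter and 14 with the median over probe sets. Small values turned sign: LCN2 (-0.08) to 0.11 with values raised to 4, and with arrays or a number left out LCN2 ranged from -0.28 to 0.17, HAVCR1 (-0.02) from -0.13 to 0.10, PPIA (-0.01) from -0.03 to 0.01, CLU (0.09) from -0.06 to 0.19 and PPIB (0.04) from -0.03 to 0.09. Fewer arrays leave fewer residual degrees of freedom, and without the block the spread between replicate numbers enters the error; for the other settings the cause was not tested. Counts of called list members under these settings were added after the data were seen. Values near background are compressed by GCRMA, which limits CHAC1 and STC2 at 12 h and SDF2L1 and SOX9 at 24 h.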
